A study of Mus musculus with 12 samples.

Results

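The 10 listed genes of prostaglandin and leukotriene signalling were followed across cultured mouse type II alveolar epithelial cells that lacked different G protein alpha subunits. The listed genes are Ptgs1, Ptgs2, Ptges, Ptger2, Ptger4, Hpgd, Pla2g4a, Alox5, Alox5ap and Ltc4s. Every probe set annotated to 1 of these genes alone was taken, which gave 14 of the 45101 probe sets of an Affymetrix mouse genome array and 9 of the 10 genes. The annotation used here names no probe set for Ptgs1, and that gene was not analysed here. The 12 arrays fall into 4 genotype groups of 3: Gna11 ko, Gnaq/Gna11 double ko (spelled Gnaq/Ga11 in the labels), Gna12 ko and Gna12/Gna13 double ko (spelled Gna12/Ga13). All groups held untreated cells isolated from lung, grown on collagen for 7 days. Their growth medium, made for bronchial epithelium, held keratinocyte growth factor but no hydrocortisone and was renewed every 3 days. The labels give no age, strain, Cre driver or promoter for the deletions, so it is not known from them in which cells the genes were deleted. Every group lacked at least 1 G protein gene, and no wild-type cells enter the comparisons, so each difference is between 2 kinds of mutant cells. Whether arrays of 1 group stem from different animals or cultures is not stated, so a p-value here measures the spread between these samples alone, some of which may be technical.

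Prostaglandins and leukotrienes are made from arachidonic acid, which the cytosolic phospholipase Pla2g4a releases from membranes. The cyclooxygenases Ptgs1 and Ptgs2 turn it into prostaglandin H, from which Ptges makes prostaglandin E. That product raises cyclic AMP through the receptors Ptger2 and Ptger4 and is inactivated by the dehydrogenase Hpgd. On the other branch the lipoxygenase Alox5, helped by its membrane partner Alox5ap, makes leukotriene A, and Ltc4s joins that to glutathione. In the lung, epithelial cells are a known source of prostaglandin E, and macrophages, mast cells and eosinophils are known sources of leukotrienes.

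The sequences before the transcription start are shown for Ptges and Ptger4, which had the largest differences between genotypes among the 9 genes, and for Alox5 and Ltc4s, whose levels varied together across the arrays. They are the 250 bases before the start from RefSeq on assembly GRCm38.p6, written 5′ to 3′ on the strand of the gene, and 9 of the 10 listed genes had an entry. All 4 genes lie on the minus strand: Ptges at chr2:30903298-30903547, Ptger4 at chr15:5244188-5244437, Alox5 at chr6:116461179-116461428 and Ltc4s at chr11:50238533-50238782. Capitals mark matches on either strand to the GC box GGGCGG and to the core GAGGAA of sites for PU.1, a transcription factor of myeloid cells.
Ptges: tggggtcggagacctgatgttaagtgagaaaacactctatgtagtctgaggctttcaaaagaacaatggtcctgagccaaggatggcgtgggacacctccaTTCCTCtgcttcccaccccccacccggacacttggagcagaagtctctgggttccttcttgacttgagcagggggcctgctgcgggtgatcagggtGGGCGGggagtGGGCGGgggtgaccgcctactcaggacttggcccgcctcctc
Ptger4: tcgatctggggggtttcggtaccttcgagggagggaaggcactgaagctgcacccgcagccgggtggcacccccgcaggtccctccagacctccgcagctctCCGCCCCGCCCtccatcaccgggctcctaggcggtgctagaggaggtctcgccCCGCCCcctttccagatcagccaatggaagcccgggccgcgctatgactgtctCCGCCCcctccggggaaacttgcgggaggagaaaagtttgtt
Alox5: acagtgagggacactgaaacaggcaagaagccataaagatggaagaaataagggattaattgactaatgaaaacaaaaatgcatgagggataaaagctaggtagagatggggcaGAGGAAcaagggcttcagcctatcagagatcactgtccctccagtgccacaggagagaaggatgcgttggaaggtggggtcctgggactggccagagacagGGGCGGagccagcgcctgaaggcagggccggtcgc
Ltc4s: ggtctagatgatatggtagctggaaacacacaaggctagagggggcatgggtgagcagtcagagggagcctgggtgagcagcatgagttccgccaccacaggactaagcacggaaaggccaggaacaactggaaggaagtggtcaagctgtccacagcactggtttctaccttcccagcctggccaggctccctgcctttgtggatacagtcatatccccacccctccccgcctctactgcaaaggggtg
The Ptges sequence holds 2 GC boxes, at 53 to 48 and 42 to 37 bases before the start, and 1 PU.1 core on the other strand at 149 to 144. Ptger4 has 4 GC boxes on the other strand, of which the pair at 148 to 143 and 143 to 138 share a base, and its GC content of 66.8% compares with a median of 52.4% over all promoters of the table. The Alox5 sequence has 1 GC box at 35 to 30 and 1 PU.1 core at 136 to 131. In the Ltc4s sequence neither motif was found, nor was the CRE core TGACG or the TATA box TATAAA, and the last pair has no match in the other 3 sequences either. Of 32851 promoters of this length, 32.7% hold the GC box, 23.3% the PU.1 core, 17.8% the CRE core and 12.4% the TATA box. A match is a stretch of letters and no measured binding site.

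The values are log2 expression summaries per probe set, made by the authors with RMA. They run from 2.13 to 14.1, and the median probe set stood at 5.10, a level used here to mark dim signals. Array medians lay between 5.03 and 5.11, the lowest correlation between arrays of a group was 0.963, and with 3 arrays a group the precision is limited. Of 21 probe sets for the 4 targeted genes, 1 per gene had all its knockout arrays below all other arrays and none had them all above. Which probe sets lie within the deleted parts is not given, so the others check nothing. The surfactant gene Sftpc, which defines type II cells, read 12.8 to 13.4 on every array. Genes of leukocytes were bright as well, with Tyrobp at 12.6 to 13.0 and Fcer1g at 12.04 to 12.69. Averaged over 19 measured pan-leukocyte genes of 20 listed, the log2 level was 9.13 ± 0.31 (SD, n = 3) in Gna11, 9.91 ± 0.05 in Gnaq/Gna11, 10.3 ± 0.29 in Gna12 and 10.05 ± 0.41 in Gna12/Gna13 cells. The mean of 17 macrophage and monocyte genes of 18 listed followed at 8.84 ± 0.38, 10.32 ± 0.07, 10.13 ± 0.27 and 10.15 ± 0.69. None of the defining markers in these 2 lists was at 0, since RMA gives no zeros. In bulk RNA, fewer cells of a type cannot be told apart from less RNA per cell.

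Differences were tested with limma on the brightest probe set of each of 18193 genes, and a gene was called where its Benjamini-Hochberg adjusted p over all these genes was under 0.05. No member was called in Gnaq/Gna11 against Gna11, where 1.84% of all genes were, nor in Gna12/Gna13 against Gna12, where 0% were. At an unadjusted p under 0.05 from limma there were 3 members and 2941 of all genes in the first of these comparisons, and 0 members and 820 genes in the second. No member was called in the test of whether these 2 differences differ, where 0.0715% of genes were. There 1 member, Ptges, had an unadjusted p under 0.05 from limma, beside 1967 of all genes. In Gna12 against Gna11 again 0 of 9 were called, beside 2.82% of all genes. At an unadjusted p under 0.05 from limma there were 5 members and 3795 of all genes. Between the 6 Gna12-lacking arrays and the 6 Gna11-lacking arrays, 2 of the 9 were called, Ptger4 higher and Hpgd lower, beside 12.3% of all genes. The position codes in the labels carry one number for Gna11-lacking and another for Gna12-lacking samples, so mouse line, genotype and position cannot be told apart in the last 2 comparisons. The median difference of the 9 members was 0.30 for Gnaq/Gna11 against Gna11, where that of all genes was -0.03, and -0.10 for Gna12-lacking against Gna11-lacking cells, where that of all genes was -0.05.

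**Figure D1:**
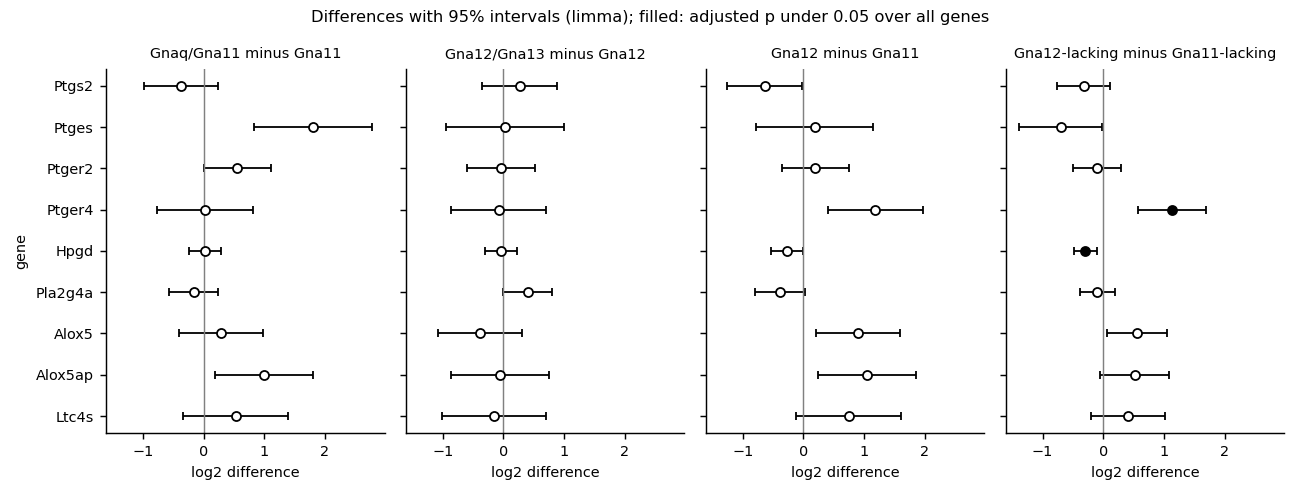
Log2 differences of the 9 measured genes in 4 comparisons, from limma, with 95% intervals; filled points were called at an adjusted p under 0.05 over all genes. Only Ptger4 and Hpgd in the right panel are filled, and Ptges has the largest difference in the left panel, 1.80 with an interval from 0.84 to 2.77.

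Substrate release and the first cyclooxygenase step gave only dim signals. Pla2g4a lay between 3.75 and 4.67 on the 12 arrays, below the median probe set on each. Ptgs2, the inducible cyclooxygenase, was also dim. It read 3.29, 3.38 and 4.65 in Gna11, 3.43, 3.42 and 3.35 in Gnaq/Gna11, 3.20, 3.13 and 3.07 in Gna12 and 3.29, 3.66 and 3.25 in Gna12/Gna13 cells. A single array, Gna11 replicate 3, stood above the rest, and the 3 Gna12 arrays were the lowest. The difference of Gna12 from Gna11 was -0.64 ± 0.28 (SE) and was not called by limma (adjusted p = 0.224). It ranged from -0.883 to -0.205 when single arrays were left out. The other Ptgs2 probe set, 1417262_at, read 2.65 to 3.09 and differed by 0.13 ± 0.11 in this comparison. Neither gene reached a level at which these arrays give more than a weak reading, so little can be said of how much of either RNA the cells held.

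Ptges, the prostaglandin E synthase, was highest in the cells without Gnaq and Gna11 by its brightest probe set. That probe set read 9.51, 9.26 and 9.29 in Gnaq/Gna11 cells. In Gna11 cells it read 7.42, 8.61 and 6.62, in Gna12 cells 8.02, 7.99 and 7.19, and in Gna12/Gna13 cells 7.68, 7.34 and 8.27. All 3 Gnaq/Gna11 arrays therefore lay above all 9 other arrays, and the other 3 groups overlapped one another. The share of all genes with such a separation was not counted. Against the Gna11 arrays alone, 19.7% of all genes had no overlap, in either direction. From the highest down, the group means were 9.36 ± 0.14 (SD, n = 3) in Gnaq/Gna11, 7.76 ± 0.47 in Gna12/Gna13, 7.73 ± 0.48 in Gna12 and 7.55 ± 1.00 in Gna11 cells, and the lower 3 did not differ beyond their spread. The difference of Gnaq/Gna11 from Gna11 was 1.80 ± 0.44 (SE), 3.49-fold, and missed the threshold (limma, adjusted p = 0.0682). In Gna12/Gna13 against Gna12 cells it was 0.03 ± 0.44, with an interval from -0.94 to 1.00. The test of whether the 2 differences differ gave 1.77 ± 0.62 (limma, adjusted p = 0.308), so a difference between the G protein pairs was not called for Ptges.

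The call for Ptges depended on the spread of the Gna11 arrays and on the probe sets used. Without Gna11 replicate 2, the highest array of its group, the difference was 2.34 and called (limma, adjusted p = 0.0193). With the mean of the 3 Ptges probe sets it was 1.05 and called (adjusted p = 0.0418). A second probe set, 1449449_at, read 6.56, 7.26 and 7.53 in Gnaq/Gna11 and 5.64, 6.26 and 6.49 in Gna11 cells, a difference of 0.99 ± 0.28 with no overlap. Between these groups 19.7% of all genes had no overlap. With the other groups this probe set overlapped, since 6.56 lay below 6.59 and 6.63 in Gna12 and 6.60 in Gna12/Gna13 cells. The third, 1439747_at, differed by 0.36 ± 0.29, and its arrays overlapped. Its mean was 6.20 in Gnaq/Gna11 and 6.23 in Gna12/Gna13 cells. The Y-linked gene Eif2s3y, which marks male tissue, read 3.32 to 3.54 on all Gnaq/Gna11 arrays and on the other groups was at 3.07 to 3.56 in replicate 2 and at 6.91 or more otherwise. On the replicate 2 arrays of the other groups Ptges read 8.61, 7.99 and 7.34, below the Gnaq/Gna11 arrays. With Eif2s3y in the fit the Ptges difference was 1.56 ± 0.50 (limma, adjusted p = 0.154). With the pan-leukocyte mean in the fit it was 2.03 ± 0.69 (adjusted p = 0.559), and with a measure of RNA integrity, the level of the 3′ Gapdh control less that of the 5′ control, it was 1.65 ± 0.66 (adjusted p = 0.404). The Gapdh measure, larger where transcripts are less complete, stood at 3.70 ± 0.29 (SD, n = 3) in Gna11, 3.14 ± 0.12 in Gnaq/Gna11, 3.00 ± 0.30 in Gna12 and 3.15 ± 0.17 in Gna12/Gna13 cells.

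Markers of several other cell types differed between the same groups as Ptges. In Gnaq/Gna11 against Gna11 cells 1.84% of all genes were called. Called higher were 6 of 17 macrophage, 3 of 9 dendritic, 2 of 10 fibroblast and 1 of 6 eosinophil genes. None of these lists held a gene called lower. In other lists 1 of 8 smooth muscle and pericyte genes was called lower, and 1 of 8 neutrophil and 1 of 19 pan-leukocyte genes higher. Over the 12 arrays Ptges had a Pearson r of 0.66 with the fibroblast mean, 0.64 with the eosinophil mean, 0.52 with the type II mean and 0.50 with the dendritic mean. After removal of group means these were 0.07, -0.07, 0.08 and -0.25. With the type I mean r was -0.56, and -0.63 after removal of group means. With the mast cell and airway means it was 0.32 and -0.26, and 0.42 and 0.41 after that removal. From Gna11 to Gnaq/Gna11 cells the fibroblast mean went from 5.69 ± 0.14 (SD, n = 3) to 6.32 ± 0.29. The dendritic mean went from 5.36 ± 0.14 to 6.66 ± 0.12. The median difference was 0.16 in the fibroblast, 0.34 in the dendritic and 0.11 in the eosinophil list. Of 10 fibroblast genes 7 were higher, with Col1a1 from 6.57 to 8.14, while Pdgfra went from 4.92 to 4.56. Of 6 eosinophil genes 4 were higher, but the mean rose mostly through Rnase2a, from 3.86 to 10.02. Prg2 went from 4.56 to 4.74 and Siglecf from 4.74 to 4.38. The part of these cell types in the Ptges difference was not tested.

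**Figure D2:**
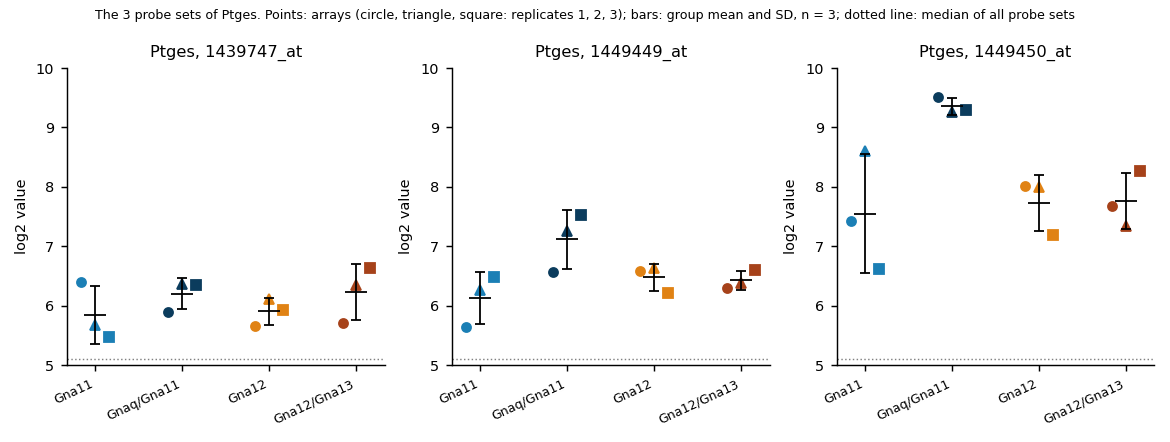
Log2 value of the 3 Ptges probe sets on each array by genotype, with group mean and SD (n = 3) and the median of all probe sets as a dotted line. In 1449450_at the 3 Gnaq/Gna11 arrays lie at 9.26 to 9.51, above all others. In 1449449_at the lowest of them, at 6.56, lies within the range of the Gna12 arrays, and in 1439747_at the groups overlap.

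Of the receptors for prostaglandin E, Ptger4 was higher in Gna12-lacking cells, while Ptger2 was dim. Ptger4 read 7.66, 7.79 and 7.05 in Gna12 and 6.99, 7.36 and 7.90 in Gna12/Gna13 cells. It read 6.98, 5.60 and 6.36 in Gna11 and 6.64, 6.34 and 6.05 in Gnaq/Gna11 cells. The 6 Gna12-lacking arrays lay above the 6 Gna11-lacking arrays, though the nearest values, 6.99 and 6.98, almost met. Of all genes, 5.74% had no overlap between these arrays, in either direction. In order, the group means were 7.50 ± 0.40 (SD, n = 3) in Gna12, 7.42 ± 0.46 in Gna12/Gna13, 6.34 ± 0.30 in Gnaq/Gna11 and 6.31 ± 0.69 in Gna11 cells, and the single and double knockouts of a line did not differ beyond their spread. The rise over the 6 Gna11-lacking arrays was 1.13 ± 0.25 (SE), 2.19-fold (limma, adjusted p = 0.0185). For the single knockouts alone, which are part of the same arrays, it was 1.19 ± 0.36 and not called (adjusted p = 0.0968).

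The Ptger4 call held in 20 of 22 alternative settings and was lost in the other 2. With the pan-leukocyte mean in the fit the difference was 0.34 ± 0.33 (limma, adjusted p = 0.718), and with the Gapdh measure 1.09 ± 0.36 (adjusted p = 0.175). The pan-leukocyte mean itself differed between the lines: 8 of its 19 genes were called higher in Gna12-lacking cells and none lower. Of 13 type II cell genes, 6 were called lower in the same comparison. Across the 12 arrays Ptger4 had a Pearson r of 0.76 with the pan-leukocyte mean (Spearman 0.81, 0.79 without the 2 most distant arrays, 0.74 after removal of group means) and of -0.80 with the type II mean (-0.33 after removal of group means). A second Ptger4 probe set, 1421073_a_at, stayed at 2.7 to 3.2 and carries little signal. Ptger2 read 3.73 to 5.17 on the 12 arrays, with a single array, Gnaq/Gna11 replicate 3, above the median probe set, and it was called in no comparison.

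Hpgd, the enzyme that inactivates prostaglandin E, was dim and, by 1 probe set, slightly lower in Gna12-lacking cells. Its brighter probe set, 1419905_s_at, whose suffix marks probes that can match several transcripts, read 4.49, 4.52 and 4.43 in Gna11 and 4.62, 4.56 and 4.34 in Gnaq/Gna11 cells. It read 4.45, 4.07 and 4.13 in Gna12 and 4.12, 4.26 and 4.15 in Gna12/Gna13 cells. Only Gna12 replicate 1 reached into the range of the Gna11-lacking arrays. The gene fell by 0.30 on the log2 scale, -0.30 ± 0.08 (SE; limma, adjusted p = 0.0419), but all 12 values lay below the median probe set. The call held in only 4 of 21 alternative settings. The dimmer probe set, 1419906_at, read 3.01 to 3.41. It differed by -0.06 ± 0.07 (SE) between the lines and was not called (limma over all probe sets, adjusted p = 0.614).

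**Figure D3:**
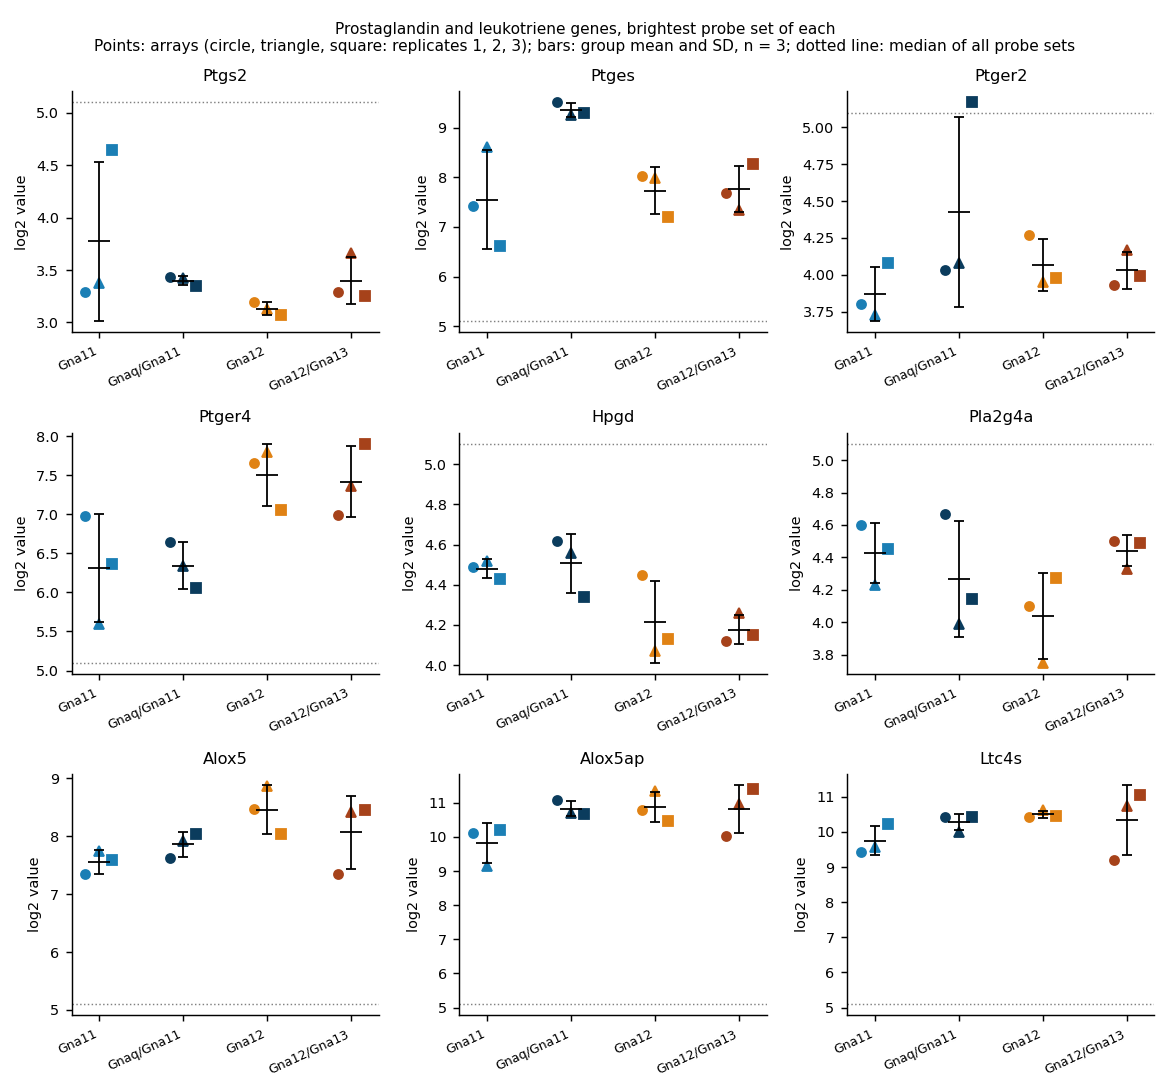
Log2 value of the 9 measured genes on each array (brightest probe set), with group mean and SD (n = 3); the dotted line is the median of all probe sets, 5.10. Ptges stands out in Gnaq/Gna11 cells and Ptger4 is higher in both Gna12-lacking groups, while Ptgs2, Hpgd and Pla2g4a lie below the dotted line.

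All 3 genes of leukotriene synthesis gave signals well above the median probe set, and none was called in any comparison. Alox5, the lipoxygenase that starts the branch, read 7.34, 7.75 and 7.59 in Gna11, 7.62, 7.92 and 8.03 in Gnaq/Gna11, 8.47, 8.87 and 8.03 in Gna12 and 7.34, 8.41 and 8.45 in Gna12/Gna13 cells. The Gna12 arrays lay above the Gna11 arrays, and Gna12/Gna13 replicate 1 was as low as the lowest Gna11 array. Alox5ap, its membrane partner, read 10.1, 9.14 and 10.2 in Gna11 cells, and 11.1, 10.7 and 10.7 in Gnaq/Gna11 cells. It read 10.8, 11.3 and 10.5 in Gna12 and 10.04, 11.0 and 11.4 in Gna12/Gna13 cells. The Gna11 group was the lowest, with only Gna12/Gna13 replicate 1 within its range. Ltc4s, the leukotriene C synthase, read 9.44, 9.58 and 10.2 in Gna11, 10.4, 10.01 and 10.4 in Gnaq/Gna11, 10.4, 10.6 and 10.45 in Gna12 and 9.21, 10.7 and 11.1 in Gna12/Gna13 cells. Its lowest and highest values both came from the Gna12/Gna13 group.

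Alox5ap differed by 1.00 ± 0.37 (SE) between Gnaq/Gna11 and Gna11 cells and was not called (limma, adjusted p = 0.207). Its arrays did not overlap there, as was so for 19.7% of all genes. Between Gna12 and Gna11 cells the differences were 0.90 ± 0.31 for Alox5 (adjusted p = 0.139), 1.04 ± 0.37 for Alox5ap (adjusted p = 0.141) and 0.74 ± 0.39 for Ltc4s (adjusted p = 0.305). Both of these comparisons share the 3 Gna11 arrays. Of the 9 members, 5 had arrays that did not overlap between Gna12 and Gna11, as did 26.3% of all genes, and 2.82% of all genes were called. Without Gna12/Gna13 replicate 1, the difference between Gna12-lacking and Gna11-lacking cells was 0.74 for Alox5 (limma, adjusted p = 0.0301) and 0.68 for Ltc4s (adjusted p = 0.0246), both called. With all arrays it was 0.55 ± 0.22 for Alox5 (adjusted p = 0.122) and 0.40 ± 0.28 for Ltc4s (adjusted p = 0.351).

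The 3 leukotriene genes varied together from array to array, with the leukocyte genes and inversely with the Gapdh measure. Over the 12 arrays, with no test, Pearson's r was 0.66 between Alox5 and Alox5ap, 0.79 between Alox5 and Ltc4s and 0.81 between Alox5ap and Ltc4s. After removal of group means it was 0.55, 0.74 and 0.74. With the pan-leukocyte mean, r was 0.80 for Alox5, 0.91 for Alox5ap and 0.79 for Ltc4s, and 0.68, 0.92 and 0.80 after removal of group means. Without the 2 arrays farthest from the median of that mean it was 0.91, 0.83 and 0.67. With the macrophage mean, r was 0.66, 0.95 and 0.78 in the same order. With the Gapdh measure it was -0.77, -0.75 and -0.71, and -0.66, -0.44 and -0.58 after removal of group means. Ptges had an r of 0.10 with the pan-leukocyte mean and 0.34 with the macrophage mean. Without the 2 arrays farthest from the median of each mean these were 0.17 and 0.59, and after removal of group means -0.14 and -0.18. The points share their arrays and normalization, and the part of leukocyte content in the differences above was not tested. The pan-leukocyte mean was 8.82 to 9.43 on the Gna11 arrays and 9.59 or more on all others. A fit with that mean therefore could not separate leukocyte content from genotype in comparisons with Gna11 cells. In that fit the differences of all 3 genes turned negative, with none called. Between Gnaq/Gna11 and Gna11 cells they were -0.44 for Alox5, -0.27 for Alox5ap and -0.63 for Ltc4s, and between Gna12 and Gna11 cells -0.20, -0.86 and -0.999. With the Gapdh measure in the fit instead, the differences between Gnaq/Gna11 and Gna11 cells were -0.35, 0.45 and -0.24, with none called. The part of RNA integrity was not tested.

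**Figure D4:**
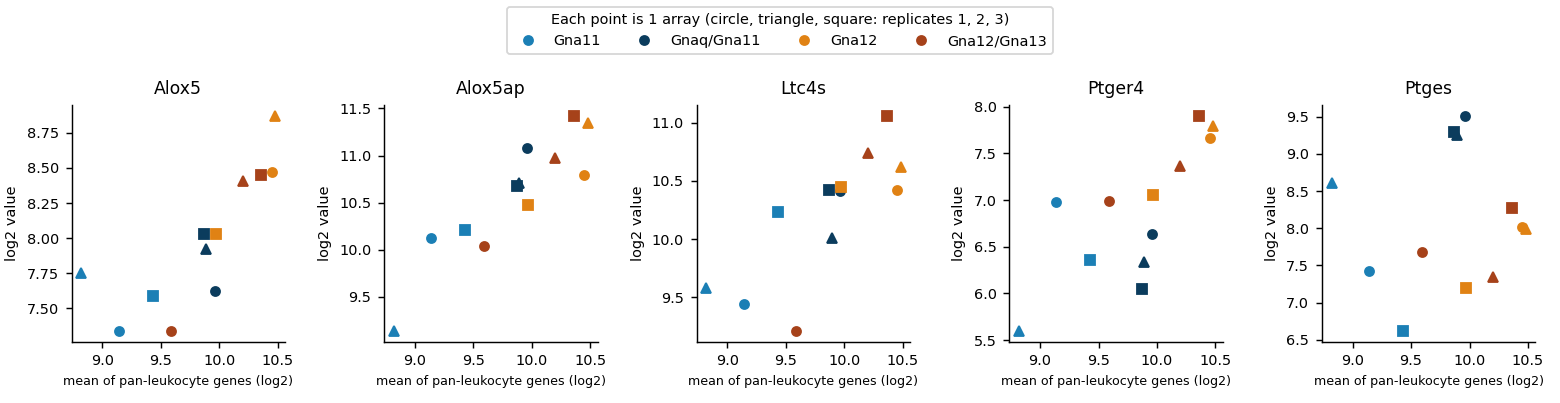
Log2 value of Alox5, Alox5ap, Ltc4s, Ptger4 and Ptges on each of 12 arrays against the mean log2 level of 19 pan-leukocyte genes; colours are genotypes and shapes are replicates. The first 4 genes are higher where the leukocyte mean is higher (r from 0.76 to 0.91), and Ptges does not (r = 0.10), its 3 highest arrays being those of Gnaq/Gna11 cells.

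Markers of other cells known to make cysteinyl leukotrienes were mixed. Of 10 mast cell genes, 4 reached the median probe set in a group. The defining genes Mcpt4, at 3.28 to 3.92, and Cpa3, at 3.42 to 5.02, were dim on all arrays, while the chymase Cma1 read 6.62 to 9.03 on the Gna11-lacking and 3.87 to 6.05 on the Gna12-lacking arrays and fell by 2.98 between the lines, -2.98 ± 0.45 (SE; limma, adjusted p = 0.00307). Hdc, at 8.37 to 9.93, and Gata2, at 7.36 to 9.16, were bright on every array. The mean of the mast cell list was 5.34 ± 0.14 (SD, n = 3) in Gna11, 5.23 ± 0.10 in Gnaq/Gna11, 4.98 ± 0.20 in Gna12 and 4.84 ± 0.13 in Gna12/Gna13 cells. Of 6 measured eosinophil genes, 2 reached the median probe set in a group. The granule gene Prg2 read 4.13 to 5.06 and the peroxidase Epx 4.29 to 5.71, but Rnase2a read 9.44, 9.49 and 11.11 in Gnaq/Gna11 against 4.09, 3.77 and 3.72 in Gna11 cells, a rise of 6.16 ± 0.80 (SE; limma, adjusted p = 0.00685). Siglecf, also known from alveolar macrophages, rose between the lines by 1.62 ± 0.29 (limma, adjusted p = 0.00654). The mean of the eosinophil list was 4.10 ± 0.04 (SD, n = 3) in Gna11, 5.12 ± 0.18 in Gnaq/Gna11, 4.61 ± 0.32 in Gna12 and 4.36 ± 0.35 in Gna12/Gna13 cells.

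The genes with the pattern most like each member over the 12 arrays were taken by Pearson's r among all genes as a description. No gene was among the 3 most like more than 1 member, within a branch or between branches. For Ptger4 they were Clec4e (r = 0.94), Clec1b (0.93) and Trem1 (0.92), and for Alox5ap Phb2 (0.97), Adgre1 (0.96) and Fcer1g (0.95). For Alox5 they were Pip5k1c (0.97), Pnpla7 (0.92) and Ccrl2 (0.90), and for Ltc4s Pla2g15 (0.95), Mcm3 (0.91) and Tbxas1 (0.91). For Ptges they were Lrcol1 (0.91), Fxyd4 (0.89) and Def8 (0.88).

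Beyond the members, 73 of 81 listed genes of the same pathways were measured, and 58 of them reached the median probe set in at least 1 group. In Gnaq/Gna11 against Gna11 cells none of the 73 was called higher and 3 were called lower. Pla2g1b, a secreted phospholipase, read 12.07, 12.08 and 11.73 in Gna11 and 11.14, 11.04 and 11.02 in Gnaq/Gna11 cells, and fell by 0.90 on the log2 scale, -0.90 ± 0.16 (SE; limma, adjusted p = 0.0209). Its call held in 16 of 23 alternatives, and its probe set, 1437015_x_at, has a suffix for probes that can match other transcripts. A second bright probe set without that suffix, 1416626_at, differed by -0.93 (limma over all probe sets, adjusted p = 0.0255). The dim ones, 1433948_at and 1433949_x_at, were at -0.36 and -0.32 and not called. Ptgfr, the receptor for prostaglandin F, read 7.09, 6.71 and 5.34 in Gna11 cells against 4.37 to 4.78 in Gnaq/Gna11 cells, a difference of -1.79 ± 0.34 (limma, adjusted p = 0.0287). It was bright in Gna11 cells alone, at 4.18 to 4.49 on the 6 Gna12-lacking arrays, and the difference of Gna12 from Gna11, which uses the same Gna11 arrays, was -2.15 ± 0.34 (adjusted p = 0.0125). Only 1 of its 5 probe sets carried this signal, and the call in Gnaq/Gna11 against Gna11 held in 13 of 23 alternatives, with a difference of -0.43 for the mean of its probe sets. The third gene was the glutathione transferase Mgst1, at -0.47 ± 0.10 (limma, adjusted p = 0.0375), called in only 8 of 23 alternatives.

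In Gna12/Gna13 against Gna12 cells and in the difference of the 2 differences, none of the 73 genes was called. At an unadjusted p under 0.05 from limma there were 8 and 12 of them, beside 820 and 1967 of all 18193 genes. Ranked within each list, the largest in the first were Ptgds at -1.58 ± 0.57 (limma, adjusted p = 1.00) among the synthases and Cbr3 at 0.78 ± 0.26 (adjusted p = 1.00) among the genes of transport and breakdown. Cmklr1, of the lipid mediator receptors, went from 5.725 in Gna12 to 4.894 in Gna12/Gna13 cells, more than Cbr3. In Gna12 against Gna11 cells 3 were called higher, namely Cotl1, a protein that binds Alox5, at 1.43 ± 0.26 (limma, adjusted p = 0.0213), the kinase Mapkapk2 at 1.16 ± 0.24 (adjusted p = 0.0347) and Rela at 0.30 ± 0.06 (adjusted p = 0.0373), and Ptgfr was called lower. Among the synthases the largest difference there was that of Ptgds, -2.21 ± 0.57, which did not pass (adjusted p = 0.0606).

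Most calls in the pathway came between the lines: 15 of the 73 genes rose and 6 fell in Gna12-lacking against Gna11-lacking cells, beside 12.3% of all genes called. Ptgds, the synthase that makes prostaglandin D, had the largest difference. It read 10.28, 8.90 and 9.35 in Gna11, 9.34, 10.41 and 8.65 in Gnaq/Gna11, 8.13, 6.04 and 7.72 in Gna12 and 5.68, 5.80 and 5.68 in Gna12/Gna13 cells. The lines did not overlap, as for 5.74% of all genes, and the double knockouts of Gna12 and Gna13 were the lowest of all. The difference was -2.98 ± 0.40 (SE), 7.89-fold (limma, adjusted p = 0.00193), and its second probe set moved the same way at -0.99 (adjusted p = 0.0152). It was called in 21 of 22 alternatives, the exception being the pan-leukocyte mean in the fit (adjusted p = 0.145). Of the 8 measured synthases no other was called. With either the pan-leukocyte or the Gapdh measure in the fit, every other pathway gene named here lost its call between the lines, and Ptgds kept its own only with the Gapdh measure. A lost call was not always a smaller difference, since over all 22 alternatives Aloxe3 stayed at 1.10 to 1.49, Anxa1 at 0.93 to 1.23, Rela at 0.24 to 0.30, Mgst2 at 0.62 to 0.93 and Pla2g4f at -1.35 to -0.98.

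**Figure D5:**
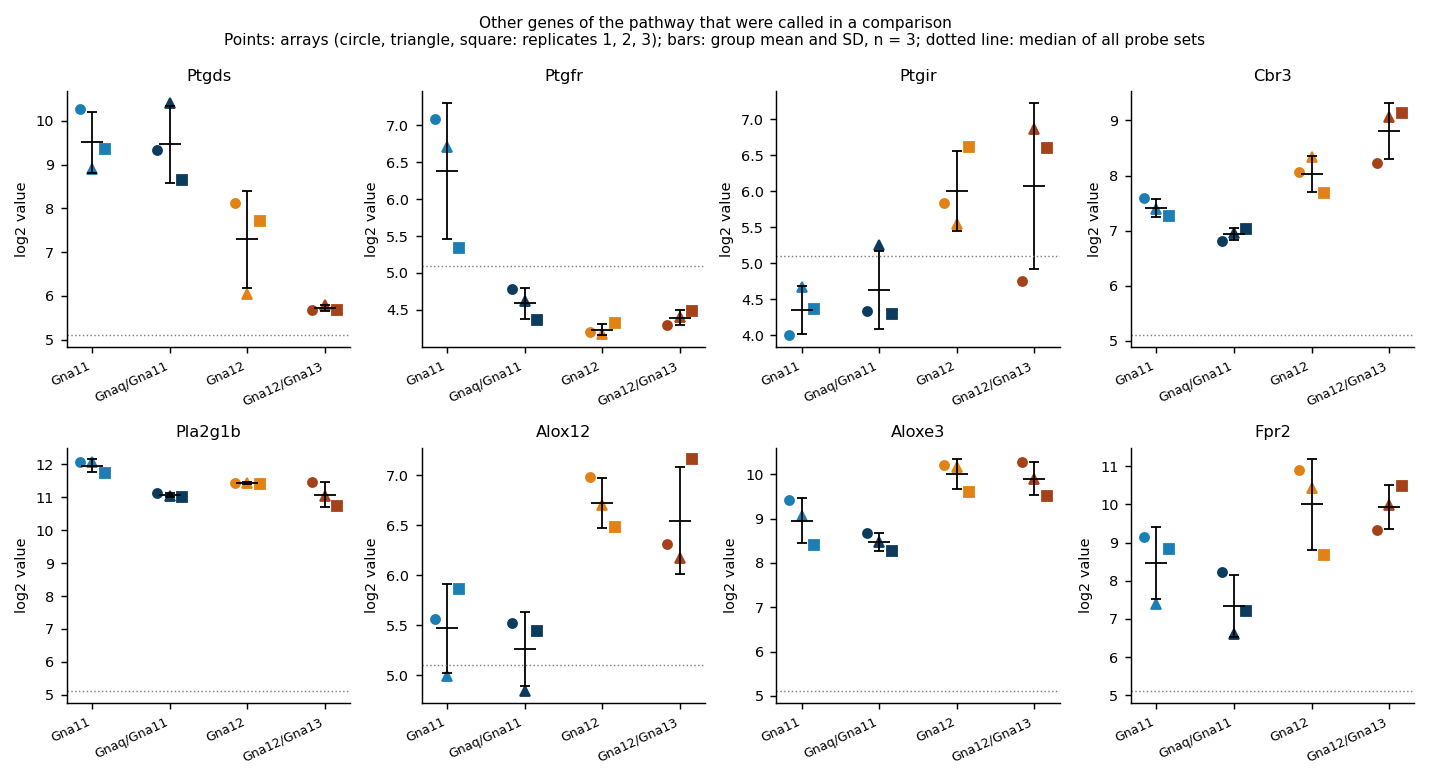
Log2 value on each array of 8 other pathway genes that were called in a comparison, with group mean and SD (n = 3) and the median of all probe sets as a dotted line. Ptgds falls from 8.65 to 10.41 on Gna11-lacking arrays to 5.68 to 8.13 on Gna12-lacking arrays, and Ptgfr is bright in Gna11 cells alone.

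Among 7 other prostanoid receptors, 1 rose and 2 fell between the lines. Ptgir, the receptor for prostacyclin, rose by 1.55 ± 0.35 (SE; limma, adjusted p = 0.0195), from 4.0 to 5.25 on the Gna11-lacking arrays to 4.75 to 6.87 on the others, which overlapped through Gna12/Gna13 replicate 1. Ptgfr was lower by -1.17 ± 0.24 (adjusted p = 0.0127), and Ptgdr2, which was dim, by -0.25 ± 0.07 (adjusted p = 0.0467). Of the 6 genes of transport and breakdown, only the carbonyl reductase Cbr3 was called, at 1.24 ± 0.19 (limma, adjusted p = 0.00297), with 6.82 to 7.59 on the Gna11-lacking and 7.69 to 9.13 on the Gna12-lacking arrays. Of the 6 other lipoxygenases, Alox12, known from platelets, rose by 1.26 ± 0.22 (limma, adjusted p = 0.00559) and Aloxe3, known from skin, by 1.24 ± 0.20 (adjusted p = 0.0043). Both were without overlap, as were 5.74% of all genes. The second, dimmer Alox12 probe set differed by 0.01, and with the mean of its probe sets Alox12 was at 0.64.

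Further genes of leukotriene synthesis and breakdown were called between the lines for 5 of 10 measured, all higher, with a median difference of 0.48 over the list beside -0.05 over all genes. They included Cyp4f18, which degrades leukotriene B, at 1.09 ± 0.30 (SE; limma, adjusted p = 0.0377), Mgst2 at 0.76 ± 0.20 (adjusted p = 0.0289), Cotl1 at 0.75 ± 0.19 (adjusted p = 0.0255) and Lta4h, which makes leukotriene B, at 0.61 ± 0.18 (adjusted p = 0.0436). The Lta4h call held in 7 of 22 alternatives and that of Cyp4f18 in 8. Lta4h read only 4.57 to 4.86 in Gna11 cells, and its other probe sets differed by -0.15 and 0.13. The second Cyp4f18 probe set was at -0.07, while the others of Cotl1 were at 0.29 to 1.01. Fpr2, a receptor for formyl peptides and lipoxin, was the only one called of 7 lipid mediator receptors, at 2.06 ± 0.45 (limma, adjusted p = 0.0166). It is expressed by myeloid cells, and with the pan-leukocyte mean in the fit it was at 0.51 (adjusted p = 0.738). Phospholipases went both ways, with Pla2g2d higher at 0.97 ± 0.27 (adjusted p = 0.0397) and Pla2g4f at -1.17 ± 0.32 (adjusted p = 0.0366), Pla2g6 at -0.50 ± 0.13 (adjusted p = 0.0343) and Pla2g2e at -0.42 ± 0.12 (adjusted p = 0.0399) lower. These calls held in 9, 12, 10 and 9 of 22 alternatives, in that order. Other probe sets were at 1.95 for Pla2g2d and at -0.23 and 0.04 for Pla2g6. Of 11 annexins and upstream regulators 4 rose: Anxa1 by 1.10 ± 0.22 (adjusted p = 0.0116), Mapkapk2 by 1.06 ± 0.17 (adjusted p = 0.00421), Cebpb by 0.73 ± 0.19 (adjusted p = 0.0318) and Rela by 0.27 ± 0.05 (adjusted p = 0.00509). A second probe set was at 0.87 for Anxa1 and at -0.19 for Cebpb.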

How the data were processed

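The deposited log2 values, 1 per probe set and array, are the authors' RMA summaries (background corrected, normalized across arrays), per the submitters' processing notes. The version of that software and the base of the logarithm are not stated in the sources used here. The base was read as 2, and every fold change rests on that reading. Per the labels, 10 ng of RNA per sample was amplified before hybridisation.

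Probe sets were named through the platform annotation given here: 34945 had 1 gene, 932 several and 9160 none. The RefSeq gene table of GRCm38.p6 updated the symbols of 34741. Of a gene's probe sets, the one with the highest mean represented it, which left 18193 genes. In limma 3.58.1 (R 4.3.3), lmFit estimated 4 group means from the 12 arrays and eBayes moderated the variances along an intensity trend (residual df 8, prior df 3.19). Two-sided p-values received the Benjamini-Hochberg adjustment across all genes. The fit was tested on simulated data. Alternatives changed the probe set rule, the filter, the normalization, the variance model, the arrays used, or added the pan-leukocyte mean, the Gapdh measure, Eif2s3y or the replicate number.

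All members are described. Of each pathway list, up to 4 called genes per comparison were named by the size of their difference, or up to 2 that did not pass. The 3 genes most like a member were named where the member reached the median probe set. Members and lists were chosen with earlier results of these data known.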

Additional observations from a re-analysis of the deposited data

How the results depend on the processing

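No alternative reversed a call of a member or of a pathway gene called in a comparison. The directions of the marker genes were not followed across the alternatives. The number of members called in Gnaq/Gna11 against Gna11 was 1 with the mean of a gene's probe sets and 0 to 1 when single arrays were left out. Between Gna12-lacking and Gna11-lacking cells, where 2 were called, it was 1 with the mean of probe sets, with genes at or above the median level, after quantile normalization or median centring, with array weights and with each probe set tested, 0 with the pan-leukocyte or the Gapdh measure in the fit, and 1 to 3 when single arrays were left out. Ptges in Gnaq/Gna11 against Gna11 had 1 direction in all 23 alternatives, from 1.05 to 2.34.

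Over all genes, the counts for Gnaq/Gna11 against Gna11 were 335 in the fit reported, 174 with array weights, 139 with only the arrays compared, 8 with the pan-leukocyte and 3 with the Gapdh measure, and 102 to 381 with single arrays left out. For Gna12/Gna13 against Gna12, 0 became 0 to 3 with single arrays left out. For the difference of the differences, 13 became 35 with the mean of probe sets, 43 at or above the median level, 22 without the intensity trend, 28 with array weights, 1 with the pan-leukocyte and 0 with the Gapdh measure, and 0 to 40 with single arrays left out. For Gna12 against Gna11, 513 became 22 with only the arrays compared, 0 with the pan-leukocyte or Gapdh measure, and 62 to 736. Between the lines, 2244 became 24 and 146 with these measures, 3399 with each probe set tested, and 1114 to 2313. Both measures differ between the groups, so the fits that hold them also lose precision.

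Replicate numbers were not taken to pair the arrays, since not every pair sharing a number had a correlation of deviations over 0.1. Of 18 such pairs 6 did (range of all 18 from -0.037 to 0.271), against 2 of 36 pairs with different numbers. These 6 were all the pairs of replicates 2 and of replicates 3 among the Gna11, Gna12 and Gna12/Gna13 groups, whose replicates 2 also shared a low Eif2s3y, a hint from the data and not from the design. With the number as a replicate block the calls were 309 for Gnaq/Gna11 against Gna11 and 2357 between the lines, with 0 and 2 members, and Ptges was at 1.80 (limma, adjusted p = 0.0877).

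The limits are those of 3 arrays per group: Pla2g4a, Ptgs2, Ptger2 and Hpgd were too dim for their differences to be read as amounts, and the fit of 3 against 3 reads only large ones.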
